A study of Homo sapiens with 10 samples.

Results

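The genes described here are 51 genes whose products sit on the surface of leukocytes or of the endothelium that leukocytes bind, among them CD5, measured in a colon carcinoma cell line. A gene was taken as a member by its symbol, and only rows of the expression table annotated with that symbol alone were used. All 51 members were measured, by 583 rows out of the 56949 rows with a gene, and they are 51 of 4713 genes in all. The rule itself goes by gene identity, and the list was drawn up with earlier results of these data known.

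The arrays hold liver metastasis derivatives of SW620 (3 arrays), lung metastasis derivatives of SW620 (3 arrays) and the parental SW620 line (4 arrays). SW620 is a human colon cancer line first grown from a lymph node metastasis. The derivatives grew as metastases in balb/c nude mice, which lack a thymus but keep innate immune cells, and were then taken out and expanded in culture. The labels give balb/c as the strain for the parental arrays as well, and they give no age, no injection route and no treatment. They call the arrays of a group biological replicates without saying whether these are separate metastases, separate mice or repeat cultures of a single derivative. The p-values below are therefore set by array-to-array spread, which may be technical. The question put to the members was which leukocyte genes the cultured tumour cells express, and which of them the derivatives gained or lost.

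Surface genes of this kind carry antigen recognition, adhesion and signalling in lymphocytes and myeloid cells. The CD3 chains transmit the signal of the T-cell receptor, CD4 binds MHC class II together with it, and CD5 and CD6 are neighbouring scavenger receptor family members that tune the strength of that signal. Most such genes are silent in epithelium. A few are used far more widely: the complement regulators CD46, CD55 and CD59 protect nearly all nucleated cells from complement, and CD58 is a broadly expressed ligand of CD2 on T cells. The array probes were designed for human transcripts. RNA of cultured cells carries no direct information on surface protein.

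A row is 1 measured feature of the array, and a gene had a median of 10 rows over the whole table. The values are log2 expression, so a difference of 1 is a doubling. The rows of a gene were averaged on each array, and this gene mean is the level given below. A gene was called changed at an adjusted p below 0.05, from limma fits over all 4713 genes with Benjamini-Hochberg adjustment. Parental replicate 4 stood apart from the other parental arrays: its values correlated with theirs at 0.965 to 0.968 over all rows, against 0.986 to 0.988 among the other parental arrays. Its correlation with the lung arrays was 0.963 to 0.964, whereas that of the other parental arrays with the lung arrays was 0.940 to 0.957. Results on the lung derivatives are therefore also given with a term that sets parental replicate 4 and the lung arrays apart, in which the lung arrays are compared with parental replicate 4 alone. That single array is assumed to vary like the arrays of the other groups, so p-values under the term carry no spread of its own. The epithelial keratins KRT8 (12.77, 12.82 and 12.75 in liver derivatives, lung derivatives and parental cells) and KRT18 (11.73, 11.61 and 11.62) were bright in every group, as was the junction protein F11R, and none was called. Of the other measured epithelial markers, the transcription factor ELF3 averaged 7.90 in liver derivatives and 8.16 in lung derivatives, against 8.40 in parental cells, and was called lower in both (limma, adjusted p = 0.00149 and 0.0328). The mucin MUC2 averaged 7.33, 7.21 and 7.29 in the 3 groups and was not called.

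CD5, CD6 and CD4 were higher in both kinds of derivative than in parental cells. CD5, an inhibitory receptor of T cells and of a subset of B cells, rose the most. CD5 had gene means of 8.95, 9.0 and 8.80 in the liver derivatives and 8.69, 8.72 and 9.34 in the lung derivatives, against 7.20, 7.26, 7.21 and 7.20 in parental cells. Every derivative array lay at least a full log2 unit above every parental array, the parental arrays lay within a narrow band, and lung replicate 3 was the highest of all. The change was 1.70 ± 0.13 on the log2 scale (SE, limma, adjusted p = 1.1e-05) in liver derivatives and 1.70 ± 0.13 in lung derivatives (adjusted p = 2.11e-05), a 3.24-fold rise in each. The liver and lung contrasts share their parental arrays. Set against each other directly, lung and liver derivatives differed in CD5 by 0.00 on the log2 scale, with a 95% interval from -0.31 to 0.31.

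CD6, a CD5 relative that binds the adhesion molecule ALCAM, had gene means of 8.19, 8.11 and 8.08 in liver derivatives and 8.20, 8.11 and 8.19 in lung derivatives, against 7.64, 7.65, 7.67 and 7.68 in parental cells. The derivative arrays all lay above the parental ones and the spread within each group was small. CD6 rose by 0.47 ± 0.06 in liver derivatives (SE, limma, adjusted p = 0.000298) and by 0.51 ± 0.06 in lung derivatives (adjusted p = 0.000169), which is 1.38-fold and 1.42-fold. Lung minus liver was 0.04, with a 95% interval from -0.09 to 0.17.

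CD4, the co-receptor of helper T cells, had gene means of 8.29, 8.22 and 8.09 in liver derivatives and 7.88, 7.84 and 8.03 in lung derivatives, against 7.29, 7.24, 7.15 and 7.14 in parental cells. No array of one group reached into another: liver derivatives were the highest, lung derivatives came between, and parental cells were the lowest. The rise was 0.99 ± 0.07 in liver derivatives (SE, limma, adjusted p = 7.51e-06, 1.99-fold) and 0.71 ± 0.07 in lung derivatives (adjusted p = 9.62e-05, 1.64-fold). Lung derivatives were lower than liver derivatives, with a difference of -0.28 ± 0.08 (adjusted p = 0.031), which was -0.20 with an adjusted p of 0.653 under the array-set term.

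**Figure D1:**
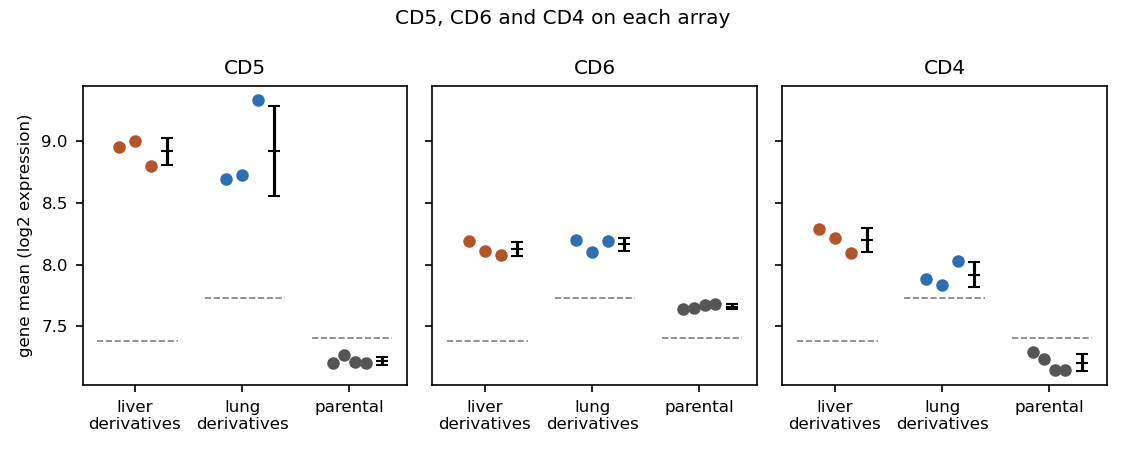
Gene means (log2 expression, vertical axis) of CD5, CD6 and CD4 on each array, with liver derivatives, lung derivatives and parental cells from left to right, the group mean with its SD in black beside the points, and the 95th percentile of 228 olfactory receptor genes in that group as a dashed line. All derivative points lie above all parental points in the 3 genes, and CD5 and CD4 lie below the dashed line only in parental cells.

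The liver comparison called these 3 genes and no other member. Of all genes 7.83% were called in that comparison and 4.33% were called higher, so the count of 3 among 51 is near the background. The other 48 members changed by -0.24 to 0.16. In lung derivatives the changes of these 3 genes under the array-set term were 1.71 for CD5, 0.49 for CD6 and 0.77 for CD4. Parental replicate 4 differed from the mean of the other parental arrays by -0.02 in CD5, 0.03 in CD6 and -0.08 in CD4. The calls of CD5, CD6 and CD4 depended on how rows were summarised: with the brightest row alone standing for a gene, liver minus parental was -0.08 for CD5, 0.24 for CD6 and -0.06 for CD4, and none was called. In lung derivatives the brightest row gave 0.60 for CD5, which was called, 0.11 for CD6 and 0.09 for CD4, which were not.

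Single rows show where in these genes the rise lay. Of the 11 CD5 rows 7 were called higher in liver derivatives and 9 in lung derivatives, in a row-wise fit adjusted over 56949 rows. Over all rows, 1.15% were called higher in the liver comparison and 5.15% in the lung comparison. Row 9 moved the most, with 9.18, 9.23 and 9.0 in liver derivatives and 8.38, 8.34 and 9.49 in lung derivatives, against 5.90, 6.63, 5.82 and 5.69 in parental cells. Every derivative array of that row lay above every parental array, by 3.13 ± 0.31 on average in liver derivatives (SE, adjusted p = 0.000937) and by 2.72 ± 0.31 in lung derivatives (adjusted p = 0.00226). Row 1, the brightest CD5 row, did not follow: it read 10.05, 10.09 and 10.09 in liver derivatives and 10.66, 10.76 and 10.84 in lung derivatives, against 10.02, 10.01, 10.19 and 10.39 in parental cells. In that row the liver and parental arrays overlapped and the lung arrays were higher.

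Of the 13 CD4 rows 8 were higher in liver derivatives and 6 in lung derivatives. CD4 row 7 had 8.32, 8.76 and 8.34 in liver derivatives and 7.96, 7.67 and 7.44 in lung derivatives, against 6.72, 6.83, 6.43 and 6.20 in parental cells, again with no overlap. CD4 row 2, the brightest, averaged 10.13 in liver derivatives, 10.29 in lung derivatives and 10.20 in parental cells and was not called. Of the 17 CD6 rows 2 were higher in liver derivatives (rows 8 and 17) and 6 in lung derivatives, among them the same rows 8 and 17. No CD5, CD6 or CD4 row was called lower in either derivative against parental cells. The rows are numbered by their identifier, and the identifiers were not matched to exons.

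**Figure D2:**
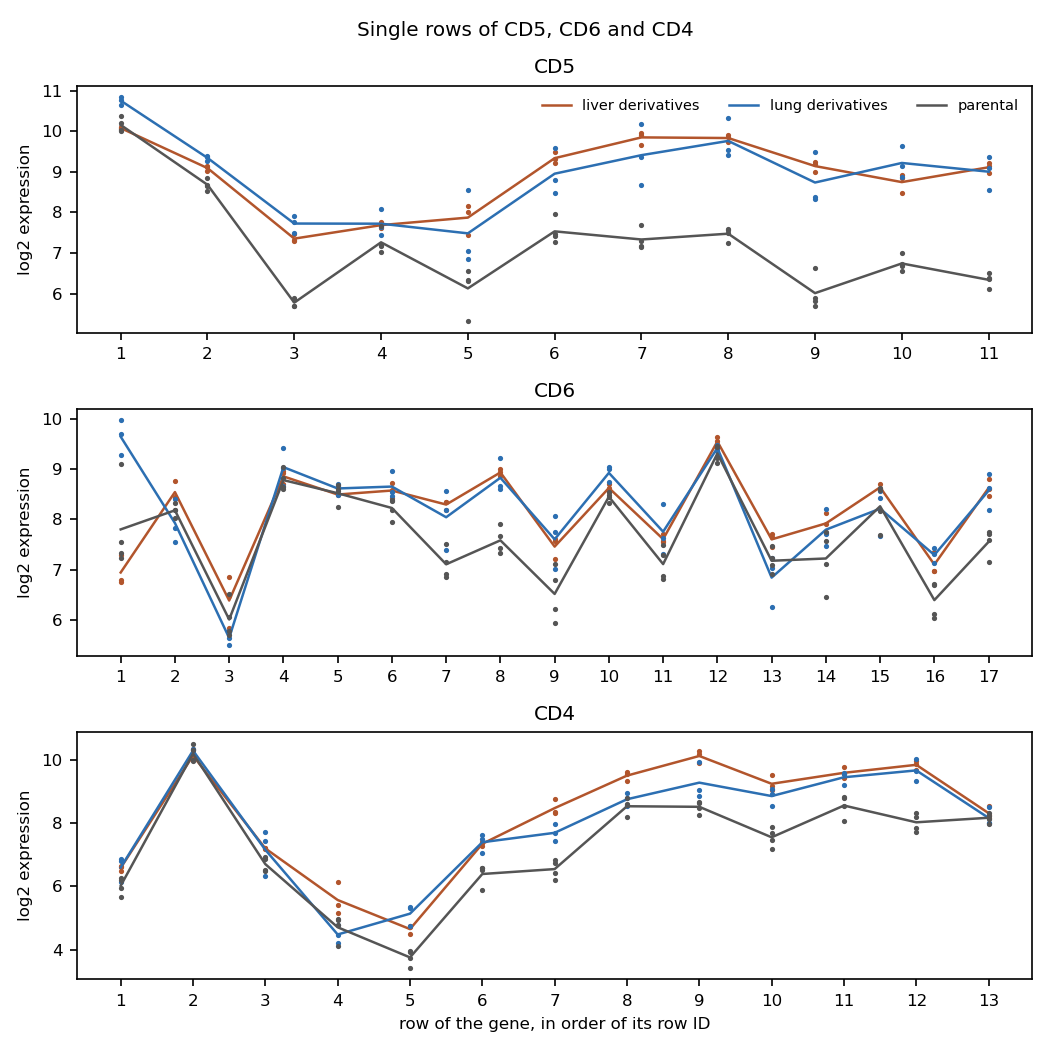
Log2 expression (vertical axis) of the single rows of CD5, CD6 and CD4 in the order of their row number (horizontal axis), with points for arrays and lines through the group means. In CD5 the derivatives stand above the parental arrays in row 3 and from row 5 on while row 1 is bright in all groups, and in CD4 the liver derivatives stand above them in rows 5 to 12 while row 2 is bright in all groups.

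CD6 and CD5 lie next to each other on chromosome 11. Of the 4 measured protein-coding genes on either side of the pair, none was called higher in liver derivatives, where 4.33% of all genes were. SLC15A3, the measured gene before CD6, changed by 0.00 in liver derivatives and rose by 0.28 in lung derivatives (limma, adjusted p = 0.0429). VPS37C, the measured gene after CD5, changed by 0.05 in liver derivatives and by -0.36 in lung derivatives (adjusted p = 0.0223). VWCE, the gene after it, was lower in both, at -0.49 in liver derivatives (adjusted p = 0.00487) and -0.34 in lung derivatives (adjusted p = 0.017). CD4 lies on chromosome 12 beside LAG3, another member, whose level did not follow it: LAG3, an inhibitory receptor that also binds MHC class II, changed by -0.04 in liver derivatives (adjusted p = 0.85) and by -0.01 in lung derivatives (adjusted p = 0.906). GPR162, the measured gene after CD4, changed by -0.18 in liver derivatives and by -0.46 in lung derivatives (limma, adjusted p = 0.468 and 0.0118). No other of the 4 measured genes on either side of CD4 was called against parental cells. Gene order was taken from RefSeq for GRCh38.p14 and used only to find neighbours.

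The second question was which members SW620 cells express at all. As a yardstick for silent genes, 228 olfactory receptor genes were used, a family read mainly by sensory neurons. They were taken as silent in these cells, which was not tested gene by gene. Their 95th percentile was 7.38 in liver derivatives, 7.73 in lung derivatives and 7.40 in parental cells. Only 7 members lay above it in all 3 groups, namely CD46, CD59, CD58, PTPRCAP, LAG3, CD1D and CD6, whereas 59% of all genes did. Olfactory receptor genes mostly have 1 row each and so scatter more widely than a mean over 10 rows, and probes differ in response, so the yardstick does not prove presence or absence of a transcript.

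The widely used complement regulators and the CD2 ligand were the bright members. CD46, a cofactor for the cleavage of complement C3b, had 11.11, 11.25 and 11.28 in liver derivatives and 11.17, 11.18 and 11.06 in lung derivatives, against 11.20, 11.17, 11.10 and 11.21 in parental cells. CD59, which blocks the membrane attack complex, had 10.29, 10.30 and 10.30 in liver derivatives and 10.04, 10.06 and 10.24 in lung derivatives, against 10.40, 10.30, 10.22 and 10.27 in parental cells. The groups overlapped in CD46, and in CD59 lung replicates 1 and 2 lay below all other arrays. CD59 differed by 0.00 in liver derivatives, and by -0.18 in lung derivatives with an adjusted p of 0.0638 that missed the threshold. CD55, the decay-accelerating factor of the same system, was dimmer, between 6.93 and 7.38 over the 10 arrays, with overlapping groups.

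CD58 had 9.13, 9.12 and 9.11 in liver derivatives and 8.95, 9.31 and 9.27 in lung derivatives, against 9.20, 9.05, 8.89 and 9.10 in parental cells. The groups overlapped throughout. Its partner on T cells, CD2, was dim, between 5.57 and 5.92. PTPRCAP, which encodes a partner protein of the phosphatase CD45, had 8.82, 8.84 and 8.80 in liver derivatives and 8.67, 8.63 and 8.60 in lung derivatives, against 8.74, 8.70, 8.85 and 8.57 in parental cells. The 6 PTPRCAP rows are 3 sets of values each listed under a pair of identifiers. CD45 itself, encoded by PTPRC, lay at 5.23 or below in every group mean.

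LAG3 had 7.89, 7.88 and 7.83 in liver derivatives and 7.93, 7.87 and 7.88 in lung derivatives, against 7.89, 7.77, 7.88 and 8.08 in parental cells, with overlap. CD1D, the CD1 protein that presents lipids to natural killer T cells, had 7.84, 7.82 and 7.66 in liver derivatives and 7.98, 7.99 and 7.98 in lung derivatives, against 7.75, 7.65, 7.84 and 7.89 in parental cells. The lung arrays were the highest for CD1D, by 0.20 over parental cells, with an adjusted p of 0.0555 that missed the threshold. Of its 8 rows 2 were called higher in lung derivatives, the brightest by 0.65 (limma on rows, adjusted p = 0.00929). Under the array-set term the gene mean changed by 0.09. CD5 and CD4 stood above the yardstick in liver and lung derivatives and below it in parental cells. CD27, a co-stimulatory receptor of the tumour necrosis factor receptor family, lay between 7.33 and 7.60 on all arrays, near the yardstick.

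**Figure D3:**
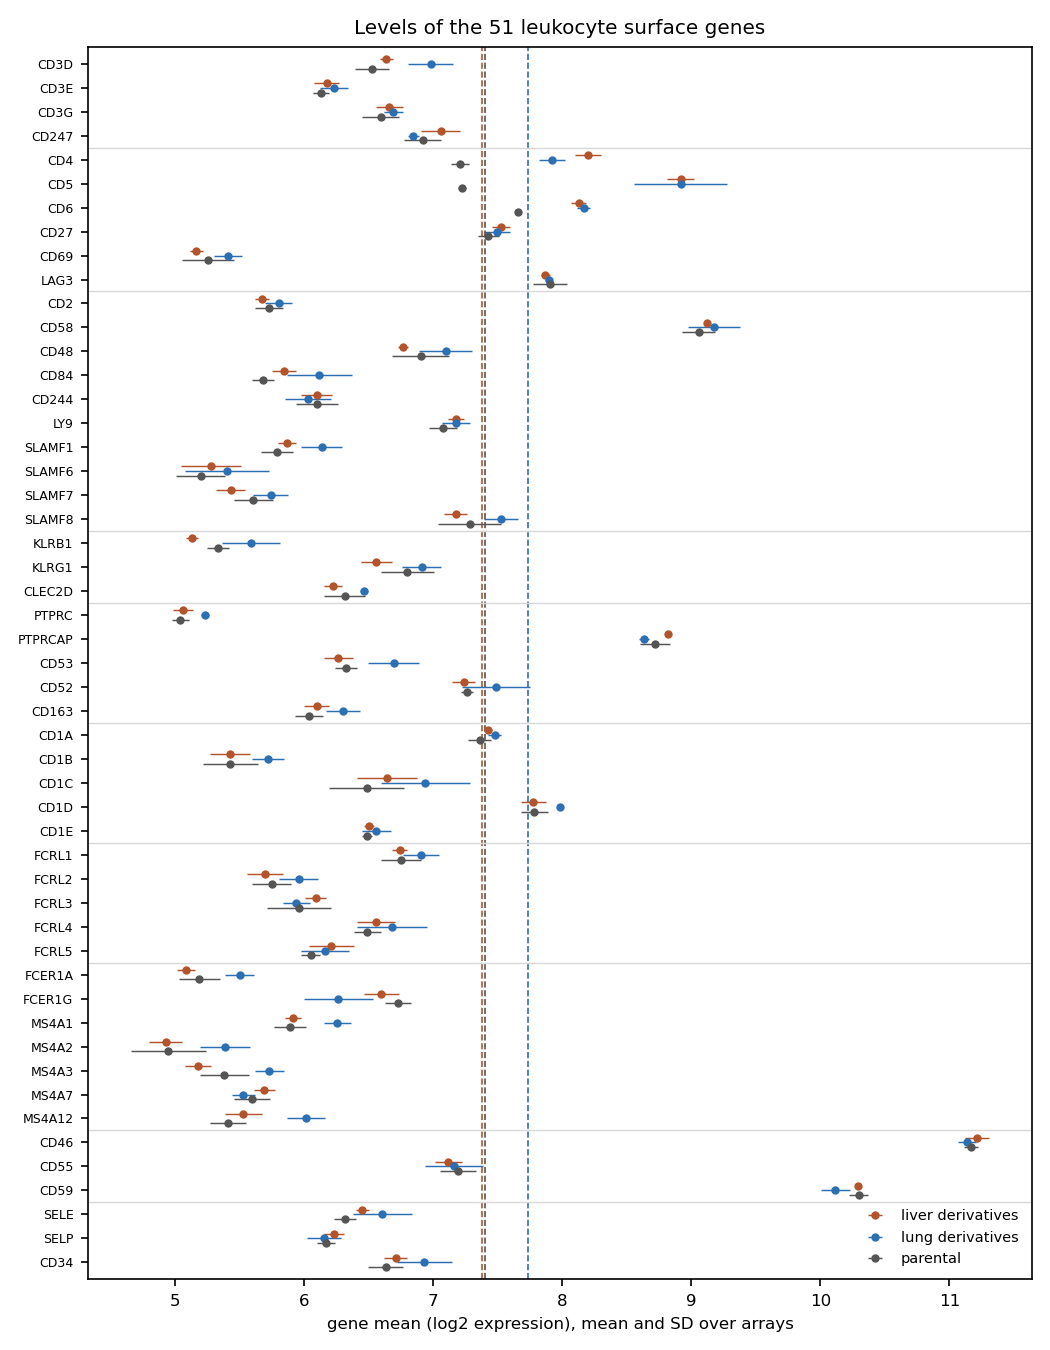
Gene means (log2 expression, horizontal axis) of the 51 members, as the group mean with its SD over 3 liver, 3 lung and 4 parental arrays, grouped by role from the T-cell receptor complex at the top to vascular and progenitor genes at the bottom. Dashed lines give the 95th percentile of the olfactory receptor genes in each group. CD46, CD59, CD58 and PTPRCAP stand far to the right in all groups, and CD5 and CD4 are displaced to the right in the derivatives.

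The promoters of 3 members are shown as examples of their range in CG content: CD58 and CD46 as bright members and PTPRC as the pan-leukocyte gene that stayed dim. Each is the 250 bases before the RefSeq gene start on GRCh38.p14, 5′ to 3′ on the strand of the gene, in lower case with the dinucleotide CG in capitals. CD58 lies at chr1:116571027-116571276 on the minus strand, CD46 at chr1:207751788-207752037 on the plus strand and PTPRC at chr1:198638790-198639039 on the plus strand.
CD58: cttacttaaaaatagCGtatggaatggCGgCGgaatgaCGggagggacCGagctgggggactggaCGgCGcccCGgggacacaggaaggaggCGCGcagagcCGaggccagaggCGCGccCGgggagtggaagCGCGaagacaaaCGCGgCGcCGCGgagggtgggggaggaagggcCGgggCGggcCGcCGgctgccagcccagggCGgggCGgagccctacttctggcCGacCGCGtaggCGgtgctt
CD46: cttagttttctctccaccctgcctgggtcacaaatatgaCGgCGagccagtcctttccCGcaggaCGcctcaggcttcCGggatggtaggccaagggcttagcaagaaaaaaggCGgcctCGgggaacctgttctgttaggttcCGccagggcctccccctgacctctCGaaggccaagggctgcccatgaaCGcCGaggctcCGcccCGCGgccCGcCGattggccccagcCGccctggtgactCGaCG
PTPRC: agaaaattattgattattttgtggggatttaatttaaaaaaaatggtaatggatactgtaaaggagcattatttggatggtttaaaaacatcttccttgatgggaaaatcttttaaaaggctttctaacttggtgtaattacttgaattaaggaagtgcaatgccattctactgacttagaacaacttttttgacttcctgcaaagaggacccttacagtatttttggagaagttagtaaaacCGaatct

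CG reads the same on both strands, and it was counted 31 times in the CD58 window, 19 times in that of CD46 and 1 time in that of PTPRC. Promoters were at hand for 38 of the 51 members. Among them 6 held at least 10 CG in 250 bases (15.8%): CD58, KLRG1, CD46, CD34, CD59 and CD55. Of all 27305 RefSeq genes with a promoter 51.9% did, and of the 3730 genes measured here with a promoter 66.9% did. Of 312 olfactory receptor genes 0.962% did. Of the 4 members with a promoter that lay above the olfactory yardstick in all groups 3 did, and of the other 34 members 3 did. The bright CD1D had 2, and the dim KLRG1, CD34 and CD55 had 24, 14 and 12, and no test was made of these counts. At least 1 CG was present in 93.6% of the 27305 promoters. The count is a description of the letters in this window. No sequence was shown for CD5, CD6 and CD4.

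In liver derivatives, 48 of 51 members were not called against parental cells, and their changes had a median of 0.02. None of the 4 T-cell receptor chains CD3D, CD3E, CD3G and CD247 was called, nor any of the 10 members of the CD2 and SLAM family of lymphocyte adhesion receptors. The 5 pan-leukocyte and myeloid surface genes PTPRC, PTPRCAP, CD53, CD52 and CD163 changed by -0.06 to 0.10. Their summed level (log2 of the sum of linear gene means) was 9.59 to 9.62 in liver derivatives and 9.49 to 9.65 in parental cells. PTPRCAP, the brightest of them, weighs most in this sum. The part of other cells in the rise of CD5, CD6 and CD4 was not tested beyond these values. Groups did not overlap for 4 members, CD4, CD5 and CD6 higher and KLRB1 lower, where 11.1% and 9.17% of all genes had liver arrays all higher or all lower.

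In lung derivatives, 16 of 51 members were called against parental cells, 15 higher and 1 lower. The background was 30.1% of all genes called, 12.9% higher and 17.3% lower. Genes with a mean over all arrays at or below the olfactory 95th percentile numbered 1677. Of these, 353 were called higher and 69 lower, with a median change of 0.14. The 41 members among them had 12 higher and 1 lower, with a median of 0.19. The members called beside CD5, CD6 and CD4 were dim and moved by at most 0.60. The olfactory receptor genes moved likewise on these arrays, with 70 of 228 higher and none lower, a median of 0.27 and 113 with an unadjusted p below 0.05. In liver derivatives the olfactory receptor genes had none called by limma, 3 with an unadjusted p below 0.05, and a median of -0.01. The members other than CD5, CD6 and CD4 had a median change of 0.16 in lung derivatives, and all genes a median of -0.01.

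**Figure D4:**
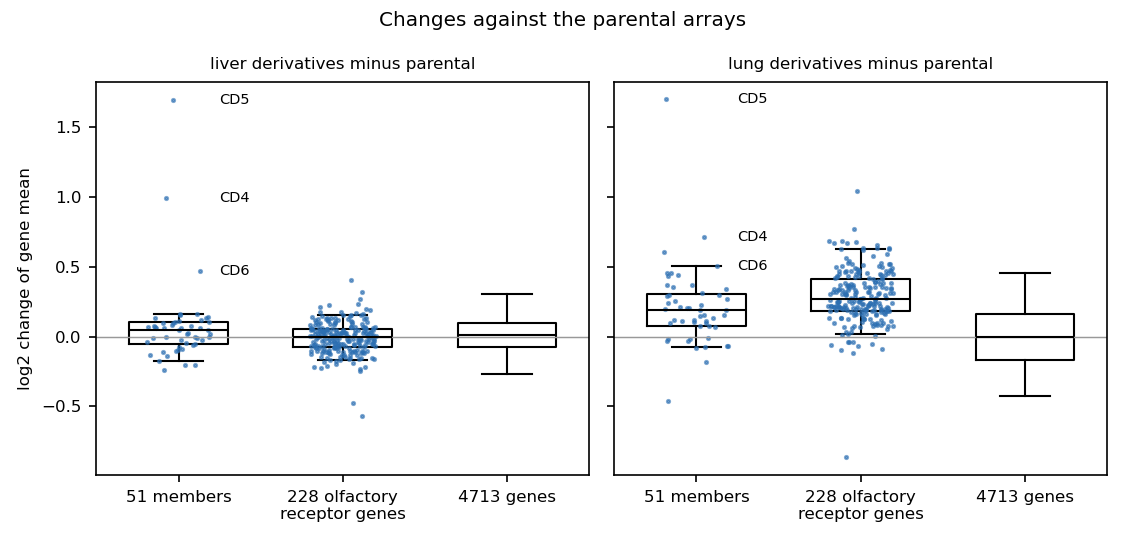
Log2 change of the gene mean (vertical axis) against parental cells, for liver derivatives on the left and lung derivatives on the right, in the 51 members, the 228 olfactory receptor genes and all 4713 genes. Boxes give quartiles and the median, whiskers the 5th and 95th percentiles, and points single genes of the members and the olfactory receptors. CD5, CD4 and CD6 stand above every olfactory receptor gene in the liver panel, and the olfactory receptor genes as a body lie above 0 in the lung panel only.

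Parental replicate 4 shared part of that shift. Set against the mean of the other parental arrays, it was higher in 177 of 228 olfactory receptor genes with a median of 0.15, and in 33 of 51 members with a median of 0.05. Of all 4713 genes, 2211 were higher on it, with a median of -0.02. Of the 1677 genes at or below the olfactory 95th percentile, 1008 were, with a median of 0.05, as in the members. Of the 16 members called in lung derivatives, CD5, CD4, CD3D and CD6 changed the most under the array-set term, by 1.71, 0.77, 0.60 and 0.49. How far a set of arrays and the lung origin each make up the lung changes cannot be told apart, since the labels name no batch and the term leaves a single parental array for the comparison.

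CD3D, the delta chain that carries the T-cell receptor signal with CD3E and CD3G, was the member of its complex that was called. It had 7.02, 6.79 and 7.13 in lung derivatives, against 6.45, 6.64, 6.64 and 6.38 in parental cells. The lung arrays all lay above the parental ones, by 0.45 ± 0.09 (SE, limma, adjusted p = 0.0062). Under the array-set term the change was 0.60 (adjusted p = 0.0256), with parental replicate 4, the lowest parental array for CD3D, as the only parental array. CD3D was below the olfactory yardstick on all arrays, 1 of its 8 rows was called higher, and its brightest row gave -0.08. CD3E, CD3G and CD247 changed by 0.10, 0.10 and -0.07 and were not called.

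Of the CD2 and SLAM family, CD84 and SLAMF1, both self-ligand receptors of lymphocytes, rose in lung derivatives. CD84 had 6.30, 5.83 and 6.22 in lung derivatives, against 5.58, 5.78, 5.71 and 5.66 in parental cells, and SLAMF1 had 6.31, 6.09 and 6.0 against 5.62, 5.89, 5.77 and 5.89. In both genes the lowest lung array lay just above the highest parental one. The changes were 0.44 ± 0.11 for CD84 (SE, limma, adjusted p = 0.0124) and 0.34 ± 0.09 for SLAMF1 (adjusted p = 0.0175). With the array-set term the changes were 0.46 for CD84 and 0.25 for SLAMF1. The other 8 members of the family were not called, so 20% of the family were, against 30.1% of all genes.

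Among the pan-leukocyte and myeloid genes, PTPRC had 5.22, 5.26 and 5.22 in lung derivatives, against 4.96, 5.11, 5.09 and 5.01 in parental cells, and CD53, a tetraspanin of leukocytes, had 6.82, 6.47 and 6.80 against 6.28, 6.23, 6.40 and 6.39. CD163, the haemoglobin scavenger receptor of macrophages, had 6.44, 6.18 and 6.28 in lung derivatives, against 6.0, 5.97, 6.20 and 5.98 in parental cells. In PTPRC and CD53 the lung arrays all lay above the parental ones, while in CD163 lung replicate 2 fell below parental replicate 3. The changes were 0.19 for PTPRC, 0.37 for CD53 and 0.27 for CD163 (limma, adjusted p = 0.0395, 0.0159 and 0.0352). The call of PTPRC was lost in 12 of 18 alternatives, that of CD163 was lost or turned in 11 of 18, and that of CD53 was lost in 5 of 18. Of the 37 PTPRC rows 1 was called higher, no CD53 row was, and the brightest CD163 row gave -0.02. The summed level of the 5 genes of this role was 9.57 to 9.70 in lung derivatives and 9.49 to 9.65 in parental cells. PTPRCAP, the brightest of them, weighs most in this sum. It changed by -0.08 in lung derivatives, while the others rose by 0.19 to 0.37.

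The IgE receptor and MS4A genes had 6 of 7 members called, where 30.1% of all genes were, and none of the 7 was called under the array-set term. The MS4A genes encode tetra-spanning membrane proteins, of which MS4A1 is the B-cell antigen CD20 and MS4A2 the beta chain of the IgE receptor. MS4A12, known in normal tissue as a gene of colonic epithelium, moved the most. It had 5.98, 6.18 and 5.89 in lung derivatives, against 5.24, 5.43, 5.40 and 5.57 in parental cells, without overlap (0.60 ± 0.10, SE, limma, adjusted p = 0.00209). MS4A1 had 6.15, 6.25 and 6.36 in lung derivatives, against 5.86, 5.83, 5.79 and 6.07 in parental cells, also without overlap (0.37 ± 0.08, adjusted p = 0.00813). Under the array-set term MS4A12 changed by 0.44 (adjusted p = 0.0948) and MS4A1 by 0.18 (adjusted p = 0.259).

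MS4A2 had 5.33, 5.23 and 5.60 in lung derivatives, against 4.71, 4.79, 4.93 and 5.36 in parental cells. MS4A3 had 5.81, 5.60 and 5.78 in lung derivatives, against 5.32, 5.16, 5.44 and 5.61 in parental cells. FCER1A, the IgE-binding alpha chain, had 5.56, 5.57 and 5.37 in lung derivatives, against 5.10, 5.10, 5.12 and 5.42 in parental cells. In each of these 3 genes parental replicate 4 was the highest parental array and lay within the lung values, so the groups overlapped. Their changes were 0.44, 0.35 and 0.31 (limma, adjusted p = 0.0431, 0.0266 and 0.0248), and under the array-set term 0.03, 0.12 and 0.08. Their calls were lost in 11, 7 and 9 of 18 alternatives.

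FCER1G, the signalling chain shared by IgE and IgG receptors, went the other way. It had 6.13, 6.09 and 6.57 in lung derivatives, against 6.78, 6.83, 6.69 and 6.61 in parental cells. All lung arrays lay below all parental arrays, lung replicate 3 only just (-0.46 ± 0.12, SE, limma, adjusted p = 0.0139), and the brightest FCER1G row gave 0.37. SELE, the E-selectin of activated endothelium, had 6.45, 6.50 and 6.87 in lung derivatives, against 6.29, 6.21, 6.41 and 6.36 in parental cells. The lung arrays lay above the parental ones, with lung replicate 3 the highest (0.29 ± 0.10, limma, adjusted p = 0.0434), and the median of the SELE rows gave -0.06. The call of SELE was kept in 7 of 18 alternatives, and its change was 0.25 under the array-set term. SELP and CD34, the other genes of its role, changed by -0.02 and 0.30 and were not called.

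No member was called in lung derivatives among the 5 genes of the CD1 family, the 5 Fc receptor-like genes or the 3 complement regulators. The C-type lectin receptors KLRB1 and KLRG1 and the KLRB1 ligand CLEC2D were not called there either. The changes of all these genes lay between -0.18 and 0.45. Over all members, 12 had lung arrays all above and 1 all below the parental arrays, where 12.8% and 19.5% of all genes did. Of the 1677 genes at or below the olfactory 95th percentile, 318 and 78 did. With the median of rows in place of their mean 7 members were called, of which CD5, CD6, CD4, CD84 and FCER1G were among the 16. The count of lung calls changed when 1 array was left out. Leaving out an array also changes the estimate of the spread and the adjustment over all genes. The counts therefore do not show that a call rests on 1 array. Without lung replicate 1 the count was 7, without parental replicate 1 or 2 it was 10 each, and without parental replicate 4 it was 23. CD5, CD6, CD4 and CD3D were called in each of these 4 counts.

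**Figure D5:**
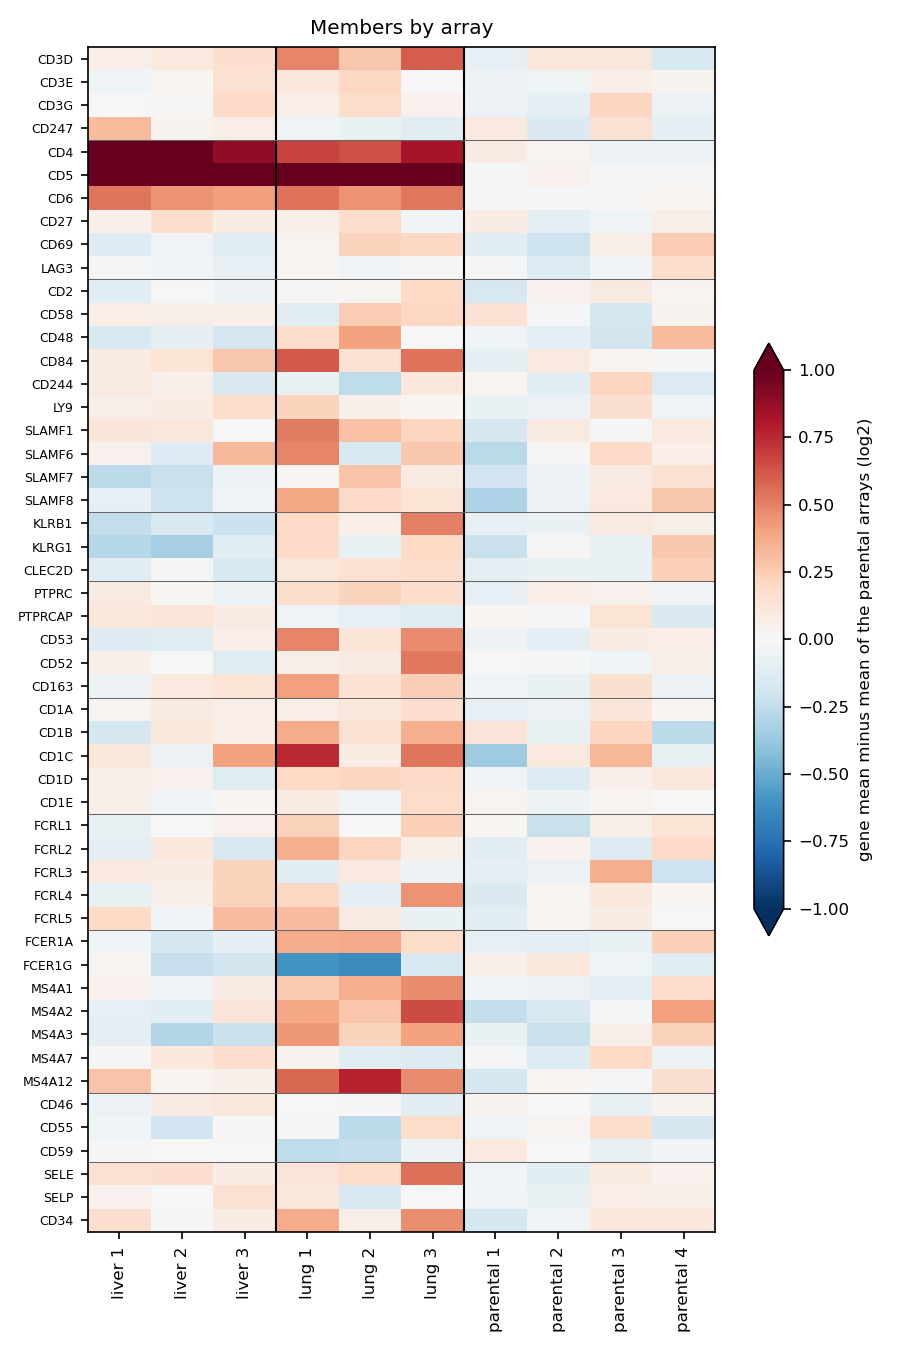
Gene mean minus the mean of the parental arrays (log2, colour scale limited to -1 and 1) for the 51 members in rows by role and the 10 arrays in columns, with liver derivatives, lung derivatives and parental arrays from left to right. CD4, CD5 and CD6 are red on all 6 derivative arrays, and the paler red of the dim members lies mainly in the lung columns.

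Lung and liver derivatives were also compared directly, which tests whether the changes of the 2 derivatives differ. Of 51 members 8 were called, 7 higher and 1 lower in lung derivatives, against a background of 19.9% of all genes called, 8.02% higher and 11.9% lower. Of the 1677 genes at or below the olfactory 95th percentile, 230 were called higher and 38 lower. The 41 members among them had 7 higher and 0 lower. The lung arrays lay all above the liver arrays for 21 members and all below for 4, where 18.9% and 27.2% of all genes did. Of the 1677 genes at or below the olfactory 95th percentile, 474 and 134 did. CD3D, CD53, FCER1A, MS4A1, MS4A3 and MS4A12 were higher by 0.34 to 0.56, and CD4 was the lower one. KLRB1, the natural killer and T-cell lectin CD161, was called in this comparison only. It had 5.52, 5.40 and 5.84 in lung derivatives, against 5.09, 5.18 and 5.12 in liver derivatives, without overlap (0.45 ± 0.10, SE, limma, adjusted p = 0.0175), while the parental arrays lay between 5.25 and 5.43.

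The olfactory receptor genes were higher in lung than in liver derivatives as well, with 58 of 228 called higher, 1 lower and a median of 0.30. With the array-set term no member was called between lung and liver derivatives by limma, and 2 had an unadjusted p below 0.05. Without liver replicate 1, 2 or 3 the count was 3, 0 and 2, and without lung replicate 1 it was 1. Without parental replicate 4, which enters this comparison only through the estimate of the spread, it was 17.

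Other leukocyte genes, not members, were read alongside from a list of 45 measured genes. In liver derivatives 3 were higher and 1 lower (8.89% called, against 7.83% of all genes), and in lung derivatives 12 were higher and 1 lower (28.9%, against 30.1%). LYZ, the lysozyme of myeloid cells and also of intestinal Paneth cells, averaged 8.06 in liver derivatives and 8.72 in lung derivatives, against 7.08 in parental cells (limma, adjusted p = 0.00163 and 5.37e-05). UCP2, a mitochondrial carrier, rose by 0.66 in liver derivatives and 0.84 in lung derivatives. TNFSF4, the ligand of the co-stimulatory receptor OX40, and FCN3, a lectin of the complement system, rose in lung derivatives, by 0.53 and 0.38. PTPN22, a phosphatase of lymphocytes, fell by 0.98 in liver derivatives and 0.68 in lung derivatives. LCK, the kinase that binds the cytoplasmic tail of CD4, was bright in all groups at 10.85, 10.66 and 10.75 in liver derivatives, lung derivatives and parental cells and was not called; it was picked out after its values were seen. The summed level of the 45 genes was 13.44 to 13.58 in liver derivatives and 13.57 to 13.65 in lung derivatives, against 13.36 to 13.51 in parental cells.

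Marker lists of tissue cells moved as follows beside these changes. Of all genes, 7.83% were called in liver derivatives and 30.1% in lung derivatives. None of 13 hepatocyte genes was called in liver derivatives, where 3 had an unadjusted p below 0.05. In lung derivatives RBP4 and CYP2E1 were called lower, with changes of -0.70 and -0.25 (limma, adjusted p = 0.00563 and 0.0261). In liver derivatives RBP4 changed by -0.50 (adjusted p = 0.0582). None of 5 endothelial genes that are no members was called in either derivative. Of these, 1 had an unadjusted p below 0.05 in liver derivatives and none in lung derivatives. The members SELE, SELP and CD34, also read as endothelial, were not called in liver derivatives. In lung derivatives they changed by 0.29, -0.02 and 0.30, and SELE was called (limma, adjusted p = 0.0434). Of 6 lung epithelial genes PDPN, SFTPA1 and SFTPA2 rose in lung derivatives, by 0.35, 0.39 and 0.45 (limma, adjusted p = 0.00536, 0.0264 and 0.0188). The others, AQP5, SCGB1A1 and SFTPD, changed by 0.17, -0.03 and -0.05 and were not called. The olfactory receptor genes had a median change of 0.27 on the same arrays. Of 9 stromal genes LUM fell in both derivatives, by 1.97 in liver derivatives and 0.62 in lung derivatives, while C1R, DCN and MMP3 rose and TAGLN fell in lung derivatives. Of 6 further complement genes C4BPB and CR2 rose in lung derivatives. The part of such cells in the members' changes was not tested.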

How the data were processed

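RNA of 10 arrays (3 liver derivatives, 3 lung derivatives, 4 parental) was read on the Affymetrix HG1.0ST chip named in the labels. The authors deposited log2 expression values, for which the submitters' processing notes name RMA and oligo without a version or a level of summary. RMA corrects background, quantile-normalizes and summarises probes. RMA sets arrays to 1 distribution, so a change in total RNA cannot be seen. Array medians were 8.52 to 8.60.

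The table has 65535 rows, of which 54806 list 1 symbol, 2143 several and 8586 none, and nearly all its genes (4660 of 4713) lie on chromosomes 1, 10, 11 and 12. Symbols were updated through RefSeq for 601 of 4727, and 24 unmatched ones were kept. Rows of a gene were averaged, and groups compared with limma 3.58.1 in R 4.3.3 (lmFit, eBayes, all arrays, no covariate, two-sided, Benjamini-Hochberg over 4713 genes or 56949 rows, threshold 0.05). The script was tested on simulated data. Members, roles, marker lists and the array-set term were chosen with earlier results of these data known. Alternatives changed the row summary, normalization, dim-gene filter, covariates, prior and arrays. Members called in any comparison, with at least 50% of rows called, or above the olfactory yardstick in all groups have their array values given. Of the other leukocyte genes those with the smallest adjusted p are named, and 1 of them is not reported here. The same replicate numbers occur in each group but did not pair the arrays.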

Additional observations from a re-analysis of the deposited data

Results flagged for a closer look

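Within the 4 parental arrays, 5 of 51 members had 1 array far from the others, by the gap to the nearest array over the whole range of the group (Dixon's ratio, past its 95% critical value). Chance flags about 1 in 20 groups. Parental replicate 3 was the highest for CD3G (ratio 0.880), LY9 (0.853) and CD163 (0.876), and parental replicate 4 for CLEC2D (0.917) and FCER1A (0.918). CLEC2D read 6.55 on parental replicate 4 and 6.22 to 6.25 on the other parental arrays. FCER1A read 5.42 there and 5.10 to 5.12 on the others.

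The changes of 8 members differed between lung and liver derivatives, by the direct limma comparison of the derivatives. Lung minus liver was 0.34 for CD3D, 0.43 for CD53, 0.42 for FCER1A, 0.45 for KLRB1, 0.34 for MS4A1, 0.49 for MS4A12, 0.56 for MS4A3 and -0.28 for CD4. CD4 differs from the other 7 in that it rose in both derivatives and less so in lung.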

How the results depend on the processing

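In liver derivatives, CD5, CD6 and CD4 were the members called under every gene-mean alternative except the brightest row, where the count was 0 (limma, 2 with an unadjusted p below 0.05), and member rows called ranged from 11 to 19 against 17 when 1 array was left out. In lung derivatives, the 16 called became 7 with the median of rows, 4 with dim genes left out (17 members and 3534 genes kept), 4 with the array-set term, 10 with only the 2 groups fitted, and 7 to 23 when 1 array was left out. The 58 rows became 11 with the array-set term and 23 to 108 when 1 array was left out. Between lung and liver derivatives, the 8 called became 15 with the brightest row, 5 with the median of rows, 1 with dim genes left out, 0 with the array-set term, 16 with only the 2 groups fitted, and 0 to 17 when 1 array was left out. The 50 rows became 0 with the array-set term (62 with an unadjusted p below 0.05) and 0 to 89 when 1 array was left out. Members above the olfactory yardstick in all groups numbered 36 by brightest row, an alternative chosen after seeing the data in which the yardstick genes keep their mostly single rows. The share of all genes above the yardstick by brightest row is not given. Nor is the share of all genes called given for any alternative or left-out array. These counts are therefore not read against a background, and a fall in them may hold for all genes.

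With the replicate block the counts were 3 in liver derivatives, 21 in lung derivatives and 14 between them (rows 12, 87 and 73). Same-numbered arrays deviated with correlations of -0.20 to 0.13, and 3 of 10 arrays matched their own number best.

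With the brightest row the sign turned for 21 of 51 members in liver minus parental, 16 in lung minus parental and 17 in lung minus liver. Among values called in the mean or the brightest-row fit, it turned for liver minus parental in CD4 (-0.0648) and CD5 (-0.0770), for lung minus parental in CD3D (-0.0834), CD163 (-0.0215), FCER1G (0.37) and CD59 (0.42), and for lung minus liver in CD3D (-0.14), CD4 (0.16), FCRL4 (-0.30), FCRL5 (0.98) and CD59 (0.38). With the median of rows it turned for lung minus parental in SELE (-0.0564). The cause was not tested. The number of arrays and, for dim members, signal near that of silent genes limit the precision.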
